A study of Mus musculus with 24 samples.

Results

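Liver that had lost the clock transcription factor BMAL1 in its own cells was compared with control liver early in the subjective night, at circadian time CT14. The members are 6 of the 24 libraries of the series, taken by their labels: the 3 of genotype LKO at CT14 and the 3 of genotype F at CT14. LKO mice were liver-specific knockouts, Alb-Cre; Bmal1f/f, in which the albumin promoter drives the Cre recombinase, in liver chiefly in hepatocytes, so that the other cells of the organ keep the gene. F mice were Bmal1f/f without Cre. Both groups therefore carry the floxed alleles, and as Alb-Cre stands in LKO alone, the transgene and the loss of BMAL1 cannot be told apart. The same genotypes at CT2, early in the subjective day, and wild-type (WT, Bmal1+/+) and globally deleted (KO, Bmal1-/-) mice on a C57BL/6J background at CT14, 3 libraries each, served only to show where the comparison differs. The sources used here give no age, sex or lighting schedule, and no strain background for F and LKO.

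BMAL1 pairs with CLOCK or its relative NPAS2 and activates genes that carry E-box elements, among them the Period and Cryptochrome repressors, the nuclear receptors REV-ERB alpha and beta (Nr1d1, Nr1d2) and the PAR-bZIP activators DBP, TEF and HLF. The Period and Cryptochrome proteins feed back on the BMAL1 complex, the REV-ERBs repress genes with ROR elements (RORE), and the PAR-bZIP proteins act on D-box elements. In liver this circuit times lipid, glucose, bile acid and drug metabolism, and part of that timing also reaches the organ through feeding, temperature and hormones.

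The 6 libraries of polyadenylated RNA held between 102832681 and 123949671 estimated counts. Levels are given as CPM, counts scaled by library total and TMM factor, always in the order of replicates 1, 2 and 3. Differences are log2 of LKO over F with the standard error (SE), n = 3 against 3, and a gene is called where edgeR's quasi-likelihood test gave a Benjamini-Hochberg adjusted p under 0.05 over all 20514 genes tested. Nothing in the labels says whether replicates were separate animals, and the p-values measure the spread between these libraries, which may be technical. In whole liver, fewer cells of a type and less RNA per cell cannot be told apart. All 24 libraries set the spread of the test, and 3 of them at CT2 stood apart: F replicate 3, LKO replicate 3 and KO replicate 1 had the Y-linked transcript Ddx3y at 3.86, 8.15 and 9.61 CPM, against 25.7 CPM or more in every other library, the 6 compared here included. The first of these also correlated least with its own group (mean Pearson r = 0.958, against 0.993 to 0.994 among LKO and 0.983 to 0.986 among F at CT14, over 20514 genes).

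LKO liver differed from F liver in a small part of the transcriptome at CT14, and there by large amounts. Of the genes tested, 354 were called (1.73%), 167 of them higher in LKO (0.814%) and 187 lower (0.912%). Of the called genes, 256 moved at least 2-fold, 114 up and 142 down, and the median size among the 354 was 1.45 on the log2 scale. In all 354 the 3 LKO libraries lay beyond the 3 F libraries, which was so for 23.6% of all genes tested (4839). Each of the 6 libraries was left out in turn, and 133 of the 354 genes were called in all 6 of these fits. The count itself was 199 without F replicate 3, 195 without LKO replicate 1, 171 without LKO replicate 2 and 192 without LKO replicate 3, while it was 896 with the spread taken from the 6 libraries alone and 754 without the 3 CT2 libraries that stood apart. The authors' deposited table lists 1620 genes with an adjusted p under 0.05, 676 higher and 944 lower, and 313 of the 354 are among them in the same direction. On the deposited TPM values limma called 807 genes, of which 665 were higher, but there the median of all genes was also 0.21; with each library centred on its median the call was 388, 186 of them higher.

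Bmal1 transcript, the targeted gene, stood at 3.26, 15 and 10.4 CPM in F and 5.96, 5.49 and 5.46 CPM in LKO. The LKO libraries were close together, and F replicate 1 lay below all of them, so the groups overlapped. The difference was -0.76 ± 0.35 (adjusted p = 0.436). Without F replicate 1 it was -1.17 ± 0.26 (adjusted p = 0.0245). At CT2 Bmal1 in the same genotypes stood at 29.1, 29.8 and 26.6 CPM in F and 7.63, 7.91 and 6.57 CPM in LKO, a difference of -1.95 ± 0.36 (adjusted p = 0.0112). A count summed over the whole gene also takes in transcripts from which the deleted exons are missing, so the CT14 level does not check the deletion itself. F replicate 1 also stood apart from the other F libraries in several clock genes: Dbp was at 35.5 CPM in it against 5.66 and 12.4 in the other F libraries, Nr1d1 at 26.1 against 7.55 and 8.99, and Ciart at 12.2 against 2.59 and 4.02.

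Genes repressed through ROREs gave the clearest single difference. Npas2, which encodes the partner and stand-in of CLOCK and is under REV-ERB repression, was at 0.184, 0.0573 and 0.119 CPM in F and 21.5, 20.6 and 15.5 CPM in LKO. It was nearly silent in every F library and moderately expressed in every LKO library. The difference was 7.30 ± 0.38 (adjusted p = 3.42e-10). Cry1, a repressor of the BMAL1 complex whose gene holds both E-boxes and ROREs, was at 19.0, 36.3 and 26.6 CPM in F and 64.5, 65.7 and 52.3 CPM in LKO. Each LKO library exceeded each F library, and the difference was 1.16 ± 0.19 (adjusted p = 0.00105). These 2 were the calls among 6 genes listed as RORE-controlled, while 1.73% of all genes tested were called. Both were called in all 6 fits with a library left out, and the fit without F replicate 1 also called Bmal1, of the same list, lower. Clock and Nfil3 gave 0.51 ± 0.49 and 0.10 ± 0.18, with adjusted p of 0.896 and 0.992. The median over the 6 was 0.44, against -0.01 over all genes tested.

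Among 14 genes listed for activation through E-boxes, 3 fell and 0 rose, against 0.912% lower and 0.814% higher of all genes tested. The median of the 14 was -0.96, and -0.62 without F replicate 1, and the fits with a library left out called 2 to 4 lower. Nr1d2, which encodes the repressor REV-ERB beta, was at 43.7, 33.7 and 35.3 CPM in F and 9.49, 7.86 and 8.02 CPM in LKO, and fell by 2.15 on the log2 scale (SE 0.31, adjusted p = 0.000424). Per3, a Period family member, was at 14.5, 18.8 and 20.1 CPM in F and 5.84, 5.45 and 4.76 CPM in LKO, a difference of -1.74 ± 0.32 (adjusted p = 0.00456). In both genes the lowest F library lay far above the highest LKO library, and both were called in all 6 fits with a library left out. Wee1, the kinase that delays entry into mitosis, was at 25.5, 16.3 and 17.5 CPM in F and 8.91, 7.69 and 9.76 CPM in LKO, -1.17 ± 0.27 (adjusted p = 0.0278). Its call rested on the full set: the adjusted p was 0.146 without F replicate 1, 0.0555 without F replicate 3, 0.103 without LKO replicate 1, 0.165 without LKO replicate 2 and 0.083 without LKO replicate 3.

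The remaining members of that list did not pass the test, and the F and LKO libraries did not overlap in 10 of the 14 genes in all, against 23.6% of all genes tested. Ciart, the repressor CHRONO, was at 12.2, 2.59 and 4.02 CPM in F and 0.708, 0.816 and 0.650 CPM in LKO, -3.11 ± 0.94 (adjusted p = 0.122), and without F replicate 1 at -2.19 (adjusted p = 0.393). Its groups did not overlap. Nr1d1 was at 26.1, 7.55 and 8.99 CPM in F and 5.16, 5.03 and 4.71 CPM in LKO, -1.52 ± 0.52 (adjusted p = 0.197), and without F replicate 1 at -0.74. Dbp was at 35.5, 5.66 and 12.4 CPM in F and 7.38, 5.72 and 6.07 CPM in LKO, with F replicate 2 below every LKO library, and gave -1.48 ± 0.51 (adjusted p = 0.192). Without F replicate 1 that was -0.50 (adjusted p = 0.815), and without F replicate 2 it was -1.91 (adjusted p = 0.0463). Tef was at 178, 121 and 137 CPM in F and 92.6, 95.1 and 95.6 CPM in LKO, again without overlap, and gave -0.62 ± 0.18 (adjusted p = 0.0805). Per2, Bhlhe41, Usp2, Hlf and Bhlhe40 gave -0.72, -1.86, -0.74, -0.35 and -0.22, with adjusted p from 0.416 to 0.952. Per1 and Cry2 were the members with estimates above 0, 0.06 and 0.21. Of 15 further clock genes, such as the casein kinase genes Csnk1d and Csnk1e and the receptor gene Rora, edgeR called 0, with 0 at an unadjusted p under 0.05 and 0 by DESeq2.

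**Figure D1:**
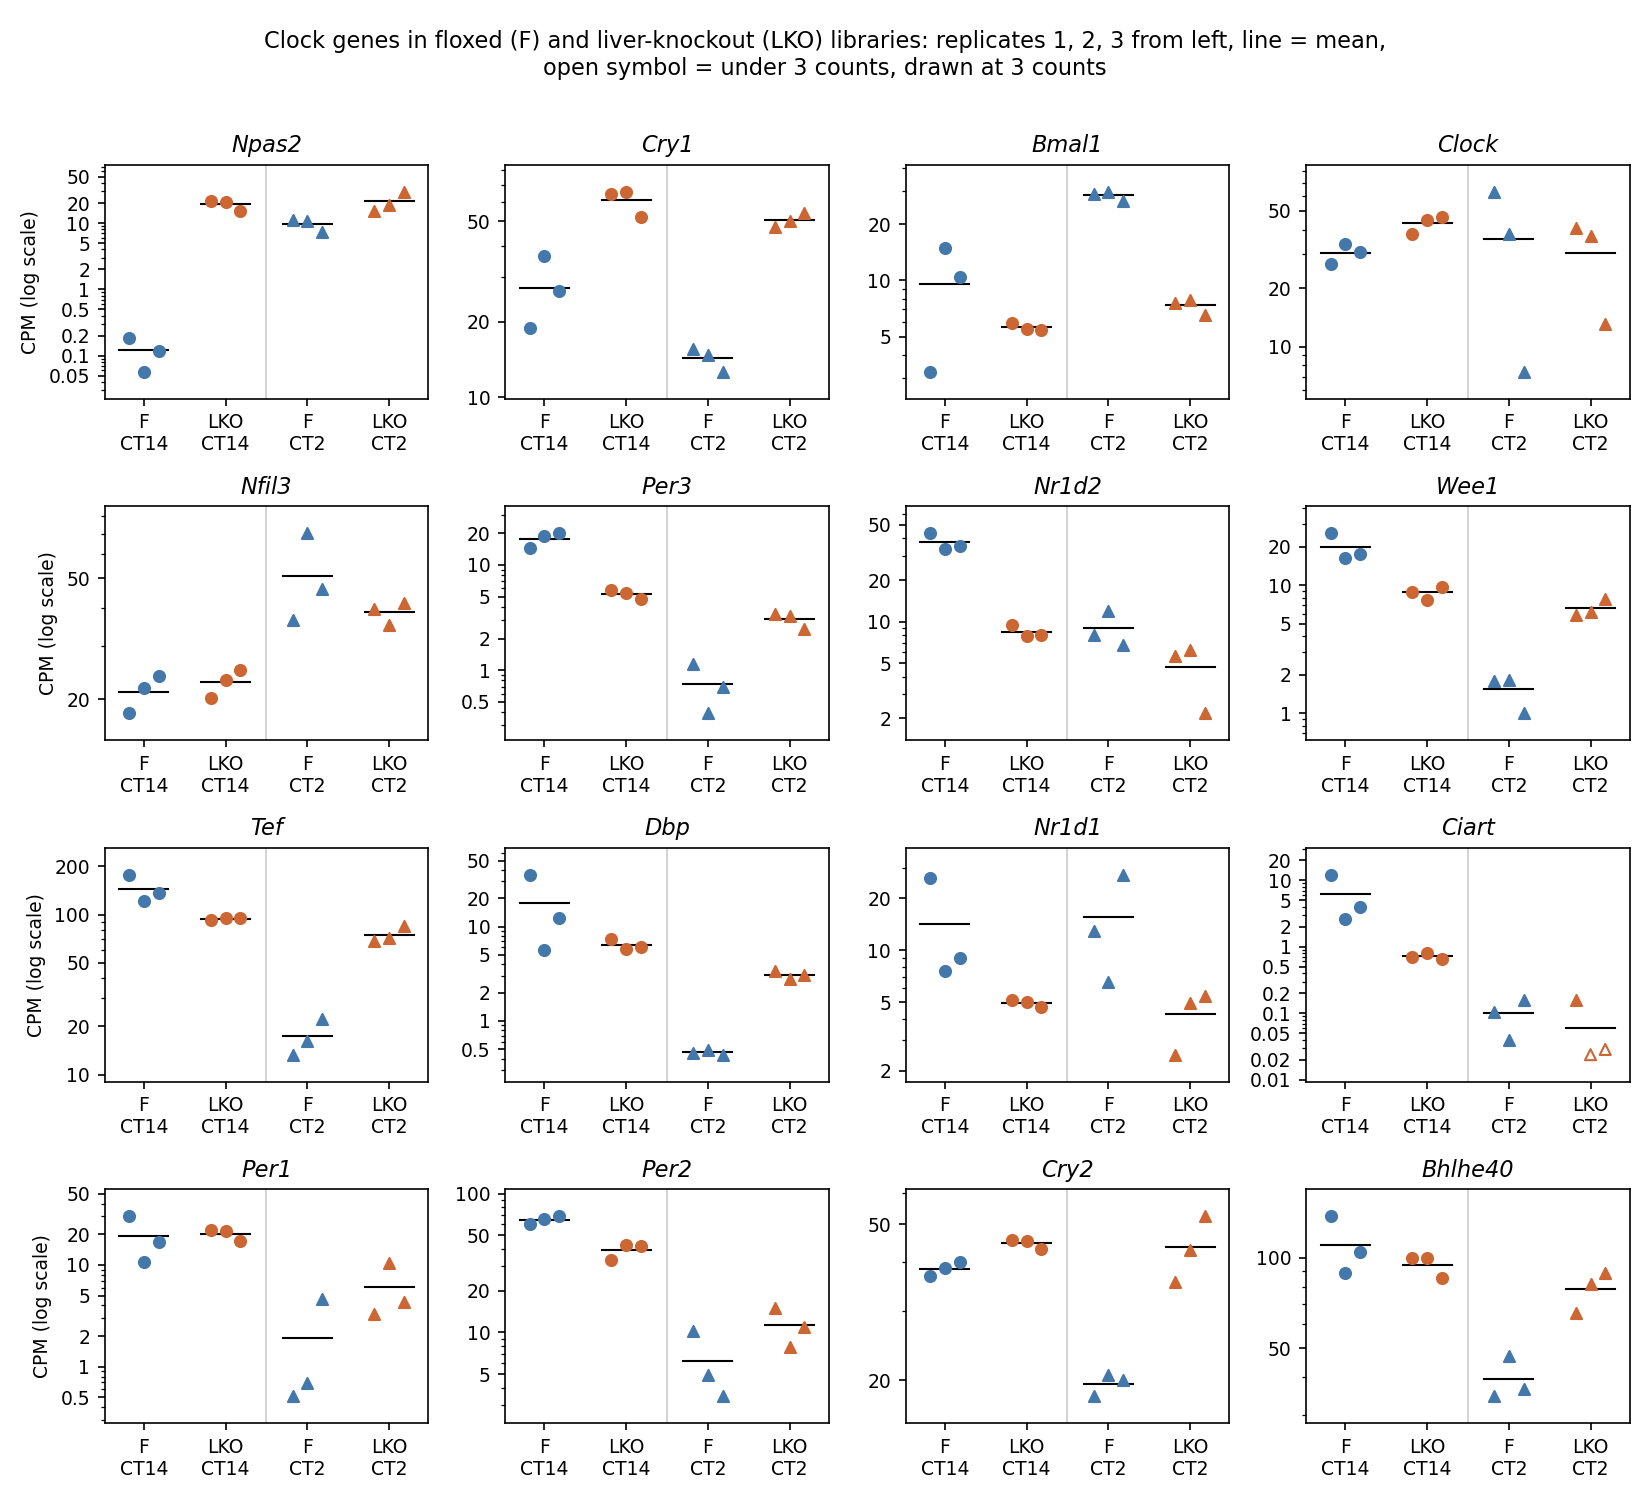
CPM of 16 clock genes on log axes in F and LKO libraries at CT14 (circles) and CT2 (triangles), 1 symbol per library with replicates 1 to 3 from left to right and a line at the group mean. At CT14 the LKO libraries sit far above F in Npas2 and below it in Per3 and Nr1d2, and F replicate 1 is the lowest F library in Bmal1 and the highest in Dbp, Nr1d1 and Ciart.

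Promoter sequence was read for the clock genes on the E-box and RORE lists, and searched for those elements and for the D-box. RefSeq windows on GRCm38.p6, from 250 bases before to 50 after the start, were found for 16 of the 20 E-box and RORE genes. Both strands were searched for CACGTG (E-box), TTATGNAA (D-box) and AGGTCA (the core of the RORE), and matches of different motifs do not overlap in the windows printed. CACGTG is in 7.15% of all 32851 windows, TTATGNAA in 3.38% and AGGTCA in 16.3%. Of the 16 clock genes, 5 had CACGTG in a window, 2 TTATGNAA and 5 AGGTCA. The lists are therefore not defined by matches in these windows. The windows of Per3 and Nr1d2, which fell, of Cry1, which rose, and of Ciart follow, in the direction of the gene, with every match in capitals. Per3 lies at chr4:151044616-151044915, Nr1d2 at chr14:18239057-18239356, Cry1 at chr10:85185005-85185304 and Ciart at chr3:95882179-95882478, all 4 on the minus strand.
Per3: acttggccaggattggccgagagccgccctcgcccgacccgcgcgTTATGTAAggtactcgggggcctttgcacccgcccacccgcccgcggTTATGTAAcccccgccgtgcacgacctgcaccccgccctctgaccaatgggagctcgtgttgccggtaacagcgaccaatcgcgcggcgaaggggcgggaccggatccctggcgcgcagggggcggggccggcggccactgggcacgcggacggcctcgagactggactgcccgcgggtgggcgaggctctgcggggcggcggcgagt
Nr1d2: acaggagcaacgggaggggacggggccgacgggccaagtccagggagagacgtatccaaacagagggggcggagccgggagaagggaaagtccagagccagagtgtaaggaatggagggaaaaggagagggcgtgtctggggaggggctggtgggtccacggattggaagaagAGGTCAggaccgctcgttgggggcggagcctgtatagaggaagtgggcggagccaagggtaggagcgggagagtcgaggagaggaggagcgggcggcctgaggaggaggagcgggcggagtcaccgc
Cry1: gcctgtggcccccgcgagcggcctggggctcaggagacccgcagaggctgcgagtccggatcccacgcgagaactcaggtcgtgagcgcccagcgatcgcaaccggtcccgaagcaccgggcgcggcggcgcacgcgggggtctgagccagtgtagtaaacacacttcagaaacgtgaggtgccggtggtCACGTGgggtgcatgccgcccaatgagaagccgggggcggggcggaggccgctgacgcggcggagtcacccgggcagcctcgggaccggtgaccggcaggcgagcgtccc
Ciart: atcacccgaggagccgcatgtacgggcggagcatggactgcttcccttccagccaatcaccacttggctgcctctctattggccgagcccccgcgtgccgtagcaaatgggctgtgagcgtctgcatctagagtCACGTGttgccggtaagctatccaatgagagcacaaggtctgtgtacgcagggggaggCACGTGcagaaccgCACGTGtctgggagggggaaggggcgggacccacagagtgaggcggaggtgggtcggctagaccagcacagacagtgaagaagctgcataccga
Per3 has 2 copies of TTATGTAA, beginning 205 and 158 bases before the start, and no CACGTG. Nr1d2, of the E-box list, has AGGTCA at 77 bases before the start and no CACGTG. Cry1, of the RORE list, has 1 CACGTG at 60 bases and no AGGTCA, and Ciart has 3 copies of CACGTG, at 116, 58 and 44 bases. The Npas2 window held none of these letters, which says nothing of elements elsewhere in the gene.

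Across the genes tested that had a window, the D-box letters were found in 2.9% of 13154 genes. They were in 16 of the 146 genes called lower with a window (11%) and in 2 of the 123 called higher (1.63%). CACGTG was in 14.4% of the lower and 14.6% of the higher genes, against 10.8% of all, and AGGTCA in 24.7% and 13.8%, against 16.2%. These shares are descriptions of letters and not of binding. Beside Per3, the 16 included Ak4, an adenylate kinase of mitochondria (-2.05), Gda, guanine deaminase (-2.35), and Cyp2a5 (-3.46), a drug-metabolising P450. Ak4 and Gda were chosen after their values were seen.

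Several genes that were silent or nearly so in F liver were read in all LKO libraries. Cdx4, a homeobox gene of the embryonic gut, had 0 counts in F and stood at 1.01, 1.27 and 1.28 CPM in LKO, at least 43.3-fold higher against a floor of 3 counts per library. Hrk, a pro-apoptotic BH3-only gene, also had 0 counts in F and stood at 0.986, 0.752 and 1.58 CPM, at least 40.2-fold higher. The noncoding RNA Gm11454 had 1 count over the 3 F libraries and was at 3.52, 3.92 and 2.28 CPM in LKO, a ratio of 1047 with a 95% counting interval of 188 to 41394. Pitx3, a homeobox gene known from dopamine neurons and lens, was at 0.105, 0.525 and 0.285 CPM in F and 19.7, 27.4 and 22.4 CPM in LKO, 6.25 ± 1.09 (adjusted p = 0.00353). Loxl4, a lysyl oxidase that crosslinks collagen, was at 0.981, 0.697 and 1.48 CPM in F and 56.3, 71.6 and 39.4 CPM in LKO, 5.73 ± 0.68 (adjusted p = 8.15e-05). In none of these genes did the F and LKO values come near each other. Defb1, a defensin, and the transcripts Gm11832, 4930459C07Rik and 3930402G23Rik completed the 12 largest increases together with Npas2, Elovl3 and Cyp2c55, with Defb1 at 5.09 ± 0.89. All 12 were called in each of the 6 fits with a library left out.

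The largest decreases were of another kind, genes well above the floor in F liver and low in LKO. Nat8, an N-acetyltransferase of the endoplasmic reticulum, was at 36.7, 26.7 and 56.3 CPM in F and 1.72, 0.908 and 0.892 CPM in LKO, -5.09 ± 0.60 (adjusted p = 6.53e-05). Its relatives Nat8f5 and Nat8f6 gave -3.83 and -3.75, with an adjusted p of 0.0535 without LKO replicate 2 for the first and between 0.0532 and 0.176 without F replicate 1 or 3 or LKO replicate 1, 2 or 3 for the second. Reads shared between such close copies cannot be traced, and the split among them is uncertain. Genes outside that family fell too. Mme, the membrane peptidase neprilysin, was at 14.2, 36.2 and 15.3 CPM in F and 2.0, 0.779 and 1.76 CPM in LKO, -3.85 ± 0.61 (adjusted p = 0.0012). Col27a1, a fibrillar collagen, was at 42.9, 32.4 and 34.6 CPM in F and 2.52, 3.01 and 2.06 CPM in LKO, -3.86 ± 0.35 (adjusted p = 1.36e-06), and Col15a1, a basement membrane collagen, gave -3.18 ± 0.51 (adjusted p = 0.00108). Tff3, a secreted trefoil peptide, was at 7.64, 17.4 and 13.5 CPM in F and 1.17, 0.330 and 0.484 CPM in LKO, -4.28 ± 0.61 (adjusted p = 0.000386). Rgs16, a regulator of G protein signalling known for a daily rhythm in liver, was at 23.5, 10.2 and 24.8 CPM in F and 0.246, 0.110 and 0.212 CPM in LKO. That was the most negative of the 12 estimates, -6.67 ± 1.38 (adjusted p = 0.0147), and it was no longer called when any 1 LKO library was left out (adjusted p = 0.0821 without LKO replicate 1, 0.112 without LKO replicate 2 and 0.0933 without LKO replicate 3). Rian, a maternally expressed noncoding RNA, gave -3.54, with an adjusted p between 0.112 and 0.193 without F replicate 2 or LKO replicate 1, 2 or 3. The transcripts Gm19522 and 1810053B23Rik, with Pnpla3 and Cyp2a5 below, completed the 12. Of these, 1810053B23Rik was not called without F replicate 2 or without any 1 LKO library.

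**Figure D2:**
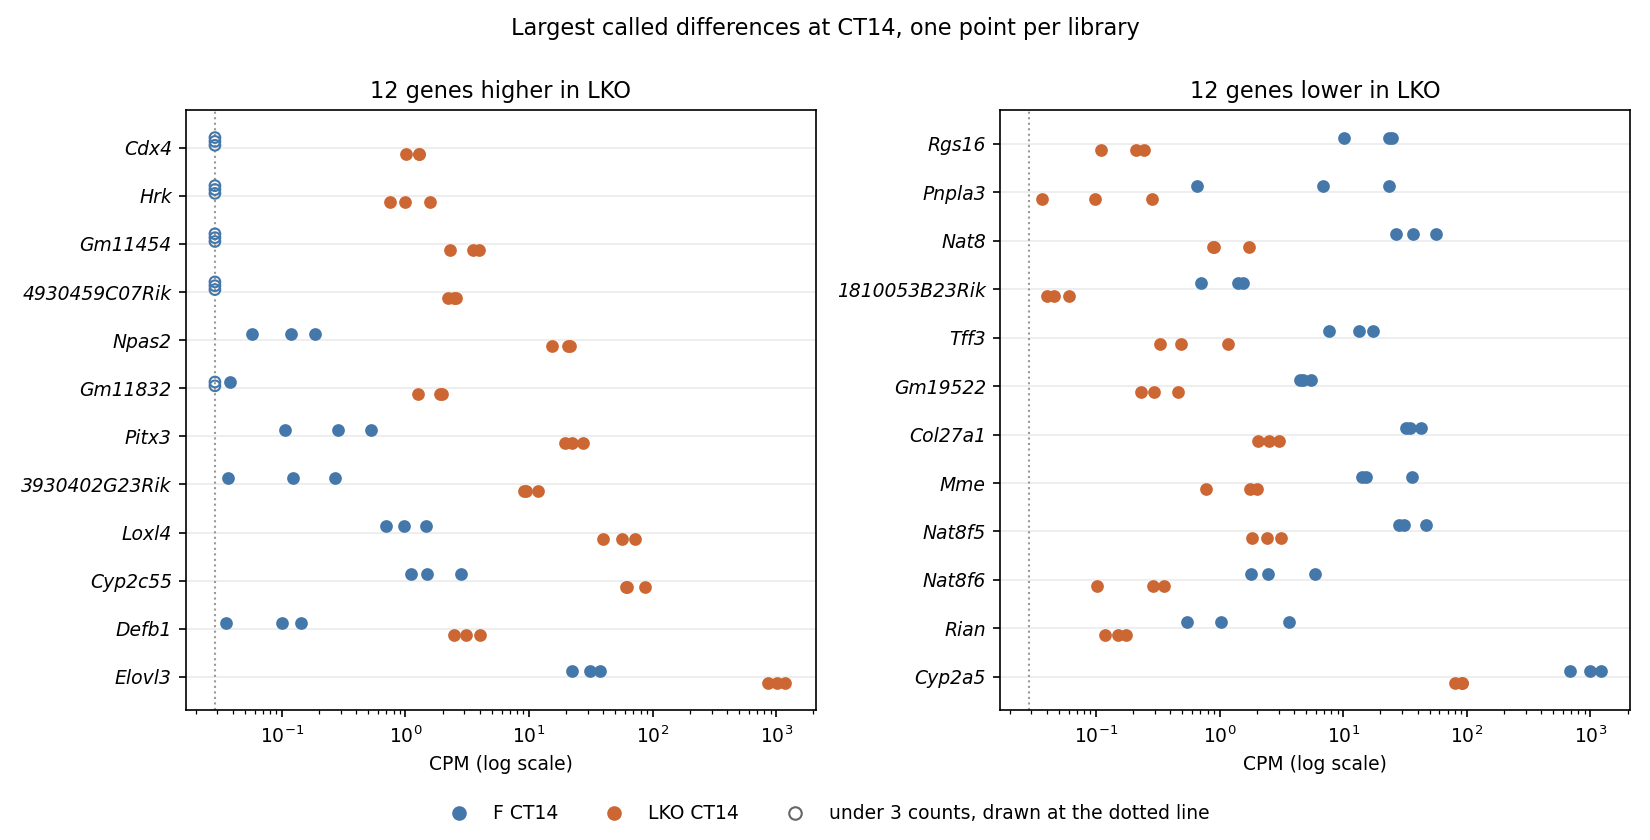
CPM on log axes of the 12 genes with the largest increase and the 12 with the largest decrease among called genes with at least 1 CPM in the higher group, 1 point per library, open where a library had under 3 counts (dotted line). F and LKO points do not meet for any gene, as separated libraries were a condition of the choice. The increases start mostly under 1 CPM in F while most decreases start above it.

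Genes of fat synthesis gave more calls below than above 0. Of 30 tested genes on the lipogenesis and triglyceride list, 7 fell and 1 rose, against 0.912% and 0.814% of all genes tested. The median of the list was -0.57. The fits with a library left out called 4 to 7 lower and 1 higher. Acacb, the acetyl-CoA carboxylase of the mitochondrial surface, was at 123, 189 and 200.1 CPM in F and 27.1, 29.7 and 33.5 CPM in LKO, -2.51 ± 0.30 (adjusted p = 6.53e-05). Thrsp, a nuclear protein tied to lipogenesis, was at 1906, 1899 and 1535 CPM in F and 211, 394 and 185 CPM in LKO, -2.76 ± 0.43 (adjusted p = 0.00103). Both sets of LKO values lay at a small fraction of the lowest F value. Fasn, the fatty acid synthase, was at 2131, 2224 and 1523 CPM in F and 649, 482 and 556 CPM in LKO, -1.80 ± 0.36 (adjusted p = 0.00772), with an adjusted p of 0.0683 without LKO replicate 2. Pnpla3, a lipase of lipid droplets, varied widely among F libraries, at 0.657, 23.6 and 6.85 CPM in F and 0.286, 0.0367 and 0.0982 CPM in LKO, and gave -6.18 ± 1.03 (adjusted p = 0.00188). With the spread taken from the 6 libraries alone its adjusted p was 0.134. The other called members that fell were Me1, which supplies NADPH (-1.36), Gpam, the first step of triglyceride assembly (-1.19), and Mlxipl, the carbohydrate-responsive factor ChREBP (-0.79). The adjusted p of Me1 was between 0.0723 and 0.162 without F replicate 1 or 2 or LKO replicate 1, 2 or 3, that of Gpam between 0.0513 and 0.0651 without F replicate 2 or LKO replicate 2, and that of Mlxipl 0.0785 without LKO replicate 3. Srebf1, Scd1 and Elovl6 had estimates of -0.91, -1.42 and -1.80 and adjusted p of 0.121, 0.232 and 0.118.

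The call above 0 was of another kind of enzyme. Elovl3, an elongase of very long fatty acids that is rhythmic and male-biased in mouse liver, rose from 22.1, 37.7 and 31.4 CPM in F to 854, 1188 and 1021 CPM in LKO, 5.07 ± 0.77 (adjusted p = 0.00105). Lpl, the lipoprotein lipase that releases fatty acids from circulating triglycerides and is low in adult liver, was at 10.7, 10.6 and 8.23 CPM in F and 187, 234 and 201 CPM in LKO, 4.40 ± 0.41 (adjusted p = 2.16e-06). Lipc, hepatic lipase, was at 129, 124 and 133 CPM in F and 216, 229 and 224 CPM in LKO, 0.79 ± 0.13 (adjusted p = 0.00188). These 2 lipases were the called members of 26 lipoprotein genes, while 1.73% of all genes tested were called. Among 38 genes of fatty acid oxidation, 1 was called: Acot4, a peroxisomal thioesterase, at 63.7, 80.4 and 66.0 CPM in F and 28.5, 21.3 and 22.3 CPM in LKO, -1.54 ± 0.22 (adjusted p = 0.000386). Of 30 cholesterol synthesis genes, 1 rose, Mvk, mevalonate kinase (1.12 ± 0.27, adjusted p = 0.0336), with an adjusted p between 0.0677 and 0.174 whichever library was left out. The median of that list was 0.39, with 21 of 30 estimates above 0. Its F and LKO libraries did not overlap in 22 genes, in either direction, against 23.6% of all genes tested. At an unadjusted p under 0.05 there were 12, against 2192 of all 20514 genes. The number called higher was 7 on the 6 libraries alone, with 1 lower. It was 3 in DESeq2, 5 on TPM, 2 on centred TPM, 0 with a replicate block, and 0 or 1 with a library left out. Summed over the lipogenesis list the levels were 11838, 16922 and 11967 CPM in F and 7419.6, 6637 and 7117 CPM in LKO, and F replicate 2 was the highest.

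Of 32 genes of glucose, glycogen and fructose metabolism, 5 fell and 2 rose, against 0.912% and 0.814% of all genes tested. With a library left out, the fits called 3 to 4 lower and 0 to 1 higher. Gys2, the glycogen synthase of liver, was at 278, 223 and 169 CPM in F and 69.4, 80.6 and 82.8 CPM in LKO, -1.53 ± 0.17 (adjusted p = 3.24e-05). Slc2a2, the glucose transporter GLUT2, was at 287, 261 and 298 CPM in F and 128, 141 and 97.3 CPM in LKO, -1.21 ± 0.19 (adjusted p = 0.00105). Pklr, the liver pyruvate kinase at the end of glycolysis, was at 483, 413 and 506 CPM in F and 219, 251 and 162 CPM in LKO, -1.15 ± 0.21 (adjusted p = 0.00469). In each of these 3 genes every LKO value lay below every F value, and each was called in all 6 fits with a library left out. Khk, the ketohexokinase that begins fructose use, gave -0.86 ± 0.17 (adjusted p = 0.00849), with an adjusted p between 0.0548 and 0.0729 without LKO replicate 1 or 3. Tkfc, the triokinase of the same pathway, and the increases of Gckr, the glucokinase regulator, and Ppp1r3c, a glycogen-targeting subunit of protein phosphatase 1, were called (-0.74, 0.53 and 1.64). Their adjusted p was between 0.0703 and 0.222 whichever library was left out for Tkfc, between 0.0587 and 0.209 whichever library was left out for Gckr and between 0.0503 and 0.0883 without F replicate 1 or 3 or LKO replicate 1 or 2 for Ppp1r3c. The gluconeogenic genes Pck1 and G6pc1 had estimates of 0.95 ± 0.62 and 1.07 ± 0.50 with adjusted p of 0.713 and 0.456.

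**Figure D3:**
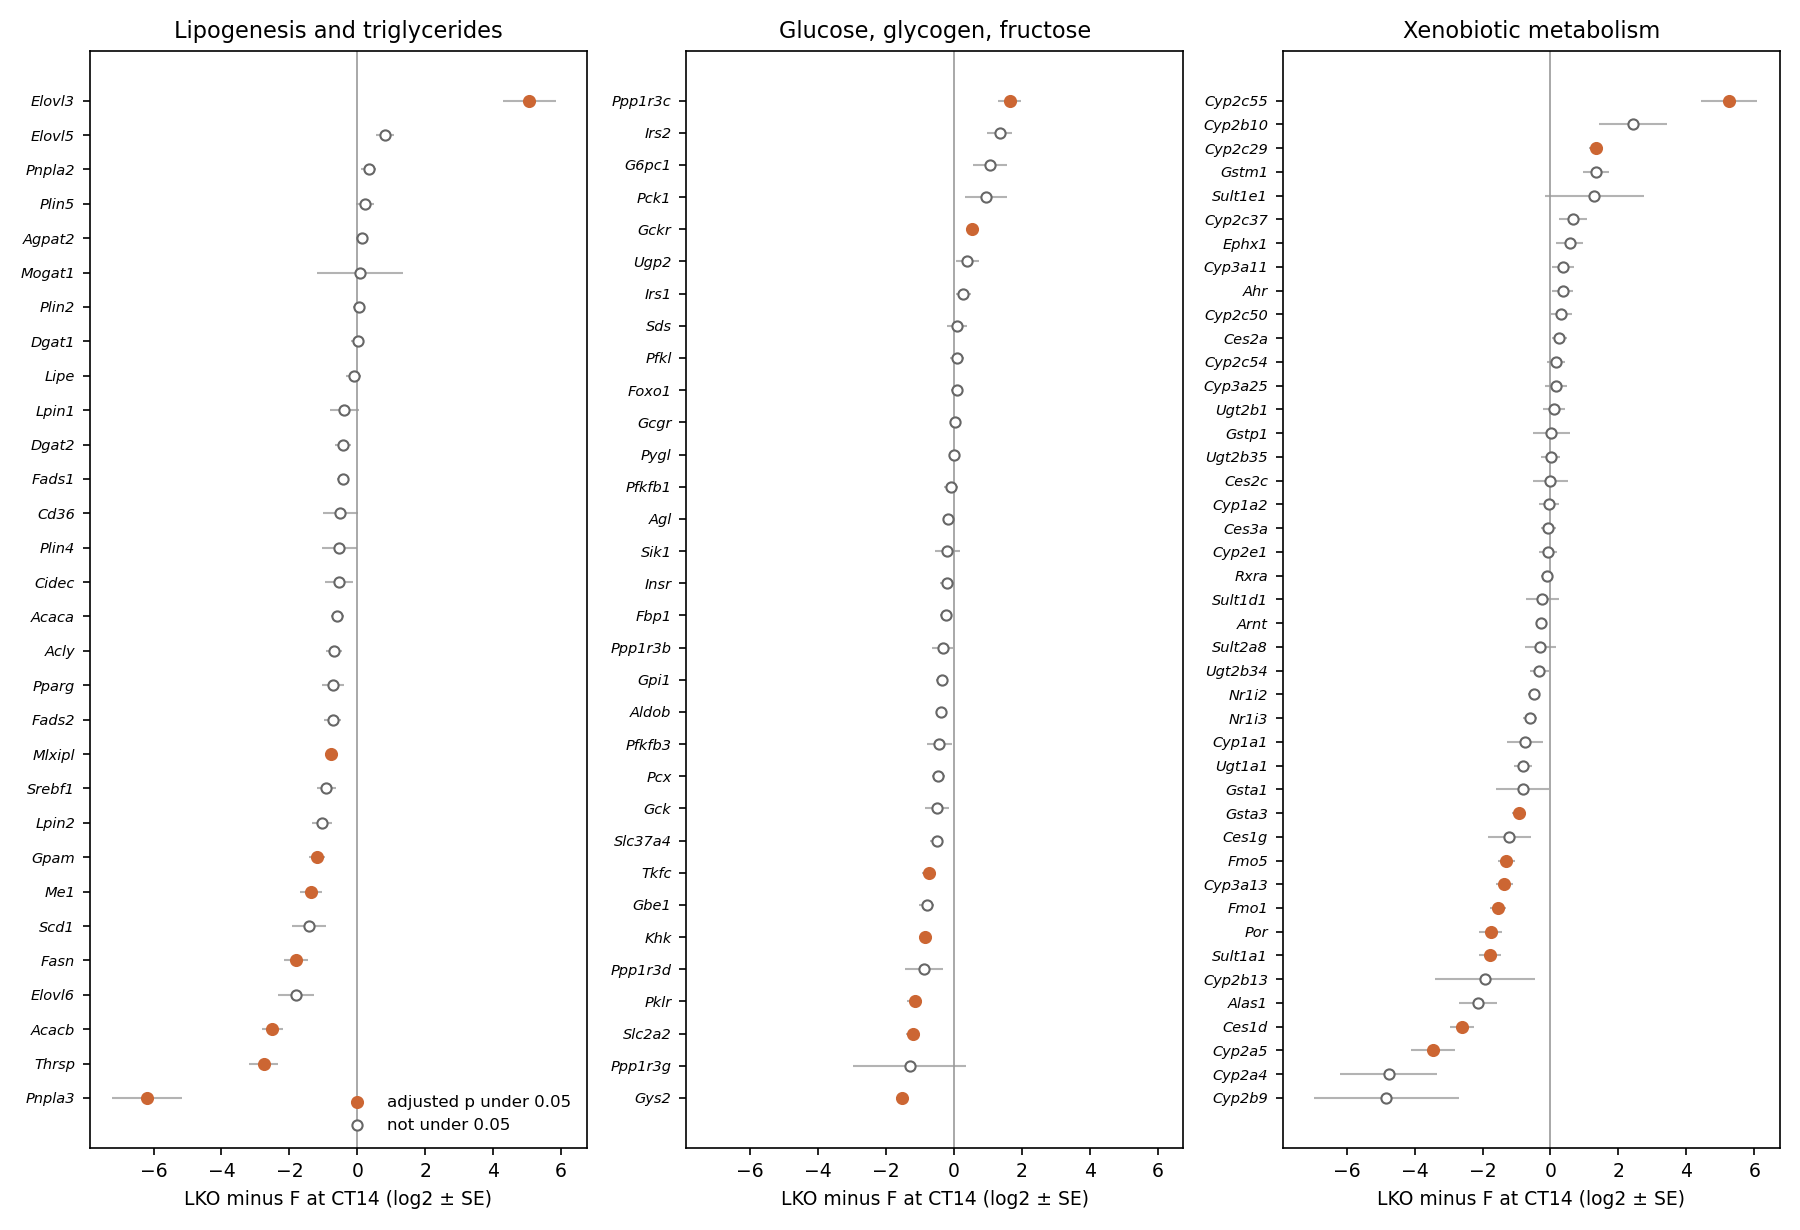
Log2 difference between LKO and F at CT14, with SE bars, for every tested member of 3 lists, filled where the adjusted p was under 0.05. Called members lie mostly on the left: 7 of 8 among lipogenesis genes, 5 of 7 among glucose genes and 8 of 10 among xenobiotic genes.

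Of 43 genes of xenobiotic metabolism, 8 fell and 2 rose, against 0.912% and 0.814% of all genes tested. With a library left out, the fits called 6 to 8 lower and 2 higher. Cyp2a5, a coumarin-oxidising P450 rhythmic in mouse liver, was at 1223, 993 and 689 CPM in F and 80.8, 91.0 and 92.2 CPM in LKO, -3.46 ± 0.64 (adjusted p = 0.00562), though reads of its near copy Cyp2a4 may be counted with it. Por, the reductase that feeds electrons to all microsomal P450s, was at 437, 485 and 568 CPM in F and 123, 138 and 183 CPM in LKO, -1.75 ± 0.34 (adjusted p = 0.00635) with an adjusted p between 0.0506 and 0.0543 without LKO replicate 1 or 2. Ces1d, a carboxylesterase, was at 1021, 1163 and 1119 CPM in F and 218, 149 and 172 CPM in LKO, -2.61 ± 0.35 (adjusted p = 0.000193). Each LKO value was below each F value in all 3. Fmo1 and Fmo5, flavin monooxygenases, gave -1.54 and -1.29, Sult1a1, a phenol sulfotransferase, -1.78, and the P450 Cyp3a13 -1.36. Gsta3, an alpha-class glutathione transferase, gave -0.92, with an adjusted p between 0.0761 and 0.131 without F replicate 2 or 3 or LKO replicate 1, 2 or 3. The called increases were both of the Cyp2c family. Cyp2c55 was at 2.83, 1.12 and 1.51 CPM in F and 62.1, 61.0 and 86.2 CPM in LKO, 5.26 ± 0.83 (adjusted p = 0.00142), and Cyp2c29 at 833, 927 and 996 CPM in F and 2165, 2531 and 2267 CPM in LKO, 1.34 ± 0.21 (adjusted p = 0.00105). Alas1, the rate-limiting enzyme of heme synthesis, was at 1153, 389 and 235 CPM in F and 146, 105 and 153 CPM in LKO; F replicate 1 was far above the other libraries, and the test gave -2.14 ± 0.55 (adjusted p = 0.0559). The receptor genes Nr1i2 and Nr1i3 had estimates of -0.50 and -0.60 and adjusted p of 0.117 and 0.192.

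Gstm3, a mu-class glutathione transferase, an enzyme that conjugates electrophiles, was at 53.2, 41.8 and 29.5 CPM in F and 311, 252 and 265 CPM in LKO, 2.73 ± 0.43 (adjusted p = 0.00105). Gstm3 was the 1 called member of 25 NRF2 and redox genes, while 1.73% of all genes tested were called. The median of that list was -0.23 and without F replicate 1 -0.14. Of the relatives of Gstm3, Gstm2, Gstm6 and Gstm7, chosen after their values were seen, gave 2.67 ± 0.30, 1.97 ± 0.27 and 1.25 ± 0.20, with adjusted p of 2.61e-05, 0.000233 and 0.00105. Gstm1, also chosen so, was at 1272, 825 and 812 CPM in F and 2953, 2356 and 2029 CPM in LKO, without overlap, and gave 1.33 ± 0.39 (adjusted p = 0.0951). The genes are near copies of each other and reads may be split among them.

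Membrane transporters held 8 called decreases and 3 called increases among 34 genes, against 0.912% and 0.814% of all genes tested. With a library left out, the fits called 5 to 6 lower and 1 to 2 higher. Slc47a1, the organic cation exporter MATE1, was at 74.4, 106 and 80.3 CPM in F and 21.1, 13.3 and 14.8 CPM in LKO, -2.40 ± 0.29 (adjusted p = 5.64e-05). Slc16a7 and Slc16a12, carriers of monocarboxylates and creatine, gave -1.96 ± 0.31 (adjusted p = 0.00103) and -1.33 ± 0.22 (adjusted p = 0.00124). The efflux and citrate carriers that fell were low in F as well. Abcb1a, the drug efflux pump P-glycoprotein, was at 3.97, 6.59 and 6.19 CPM in F and 0.946, 0.935 and 0.695 CPM in LKO, -2.70 ± 0.44 (adjusted p = 0.00142). Slc13a2, a citrate transporter, was at 2.08, 1.88 and 2.80 CPM in F and 0.350, 0.624 and 0.348 CPM in LKO, -2.35 ± 0.42 (adjusted p = 0.00339). Among the increases, the one called in all 6 fits with a library left out was Abca8b, an ABC transporter, at 31.8, 32.0 and 33.2 CPM in F and 66.1, 61.9 and 69.7 CPM in LKO, 1.03 ± 0.20 (adjusted p = 0.00762). Of 17 membrane genes chosen in earlier work on these same samples for their loss in Bmal1-null liver, 5 fell and 3 rose, which is not independent evidence; the fits with a library left out called 3 to 5 lower and 1 to 2 higher.

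Amino acid, bile acid, NAD and steroid lists held 1 to 3 called genes each, while 1.73% of all genes tested were called. Their medians lay between -0.05 and 0.04, and a shift of a whole list was not tested. F and LKO libraries did not overlap in 16 of 46, 15 of 32, 10 of 17 and 13 of 24 genes, against 23.6% of all genes. At an unadjusted p under 0.05 there were 11, 10, 6 and 8, against 2192 of all 20514 genes. DESeq2 called 6, 4, 3 and 6, against 756 of all genes. Cbs, which turns homocysteine into cystathionine, was at 239.7, 263 and 257 CPM in F and 682, 665 and 651 CPM in LKO, 1.40 ± 0.21 (adjusted p = 0.000735). Agxt, the peroxisomal alanine-glyoxylate aminotransferase, was at 119, 149 and 148 CPM in F and 503, 435 and 357 CPM in LKO, 1.63 ± 0.33 (adjusted p = 0.0082), with an adjusted p of 0.0521 without F replicate 1. The urea cycle gene Asl fell, at 691, 740.2 and 743 CPM in F and 377, 369 and 298 CPM in LKO, -1.06 ± 0.23 (adjusted p = 0.0148) with an adjusted p between 0.0503 and 0.112 without F replicate 2 or 3 or LKO replicate 1, 2 or 3. These 3 were the calls among 46 genes, 2 higher and 1 lower. In bile acid synthesis, with 2 lower and 1 higher of 32, Hsd3b7 was at 159, 256 and 215 CPM in F and 470.3, 443 and 467 CPM in LKO, 1.13 ± 0.19 (adjusted p = 0.00171). Cyp39a1, the oxysterol hydroxylase, and Akr1d1, the steroid beta-reductase, gave -1.41 ± 0.29 (adjusted p = 0.0106) and -1.26 ± 0.29 (adjusted p = 0.0247). The adjusted p was between 0.0517 and 0.0841 without F replicate 3 or LKO replicate 1 for Cyp39a1 and between 0.0552 and 0.165 without F replicate 2 or 3 or LKO replicate 1, 2 or 3 for Akr1d1. The single call among 17 NAD genes was Nmrk1, nicotinamide riboside kinase, at 30.5, 30.8 and 26.2 CPM in F and 8.30, 7.11 and 8.68 CPM in LKO, -1.86 ± 0.30 (adjusted p = 0.00105). Of 24 steroid metabolism genes Akr1c19 fell (-1.29 ± 0.25, adjusted p = 0.00604) and Hsd17b2 rose (0.89 ± 0.19, adjusted p = 0.0134). The adjusted p was 0.053 without LKO replicate 3 for Akr1c19 and between 0.0531 and 0.0687 without F replicate 2 or 3 or LKO replicate 1 or 2 for Hsd17b2.

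Growth and stress genes gave a few strong single differences, beside a share of 1.73% called among all genes tested. Cdkn1a, the cell cycle inhibitor p21, was at 1.62, 3.42 and 2.71 CPM in F and 58.5, 76.0 and 64.4 CPM in LKO, 4.68 ± 0.41 (adjusted p = 1.36e-06). Every LKO library lay far above every F library, while Wee1 and Gadd45a were the called decreases among 35 cell cycle genes. Gadd45a, a DNA damage response gene, gave -1.82 ± 0.37 (adjusted p = 0.00874) with an adjusted p between 0.0518 and 0.0815 without LKO replicate 1 or 2. Ppard, the nuclear receptor PPAR delta, was at 9.33, 13 and 11.3 CPM in F and 52.7, 53.5 and 48.3 CPM in LKO, 2.2 ± 0.27 (adjusted p = 6.53e-05), the 1 call among 25 hepatocyte factor genes. Atf5, a factor of the amino acid response, was at 169, 222 and 141 CPM in F and 438, 449 and 481 CPM in LKO, 1.36 ± 0.26 (adjusted p = 0.00648), with an adjusted p of 0.0591 without F replicate 3. Ddit4, an inhibitor of mTOR, gave 0.93 ± 0.21 (adjusted p = 0.0226) with an adjusted p between 0.0551 and 0.151 without F replicate 1, 2 or 3 or LKO replicate 1 or 2. Both are on the list of 28 endoplasmic reticulum stress and ATF4 genes, where 0 fell. Hspb1, a small heat shock protein gene, was at 67.7, 28.3 and 26.7 CPM in F and 9.26, 9.03 and 8.67 CPM in LKO, -2.19 ± 0.45 (adjusted p = 0.0127), the 1 call among 25 heat shock and cold-inducible genes. Its adjusted p was between 0.065 and 0.0828 without F replicate 1 or LKO replicate 1, 2 or 3, and F replicate 1 was its highest library.

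Genes of plasma proteins, sex bias and matrix gave the edgeR calls that follow. Of all 20514 genes tested edgeR called 1.73% and DESeq2 756, and 2192 had an unadjusted p under 0.05 in edgeR. Alb was at 67442, 109903 and 76994 CPM in F and 44356, 40965 and 33309.8 CPM in LKO, -1.10 ± 0.24 (adjusted p = 0.0148). The adjusted p was between 0.071 and 0.115 without F replicate 2 or LKO replicate 2 or 3. Alb was the 1 call among 9 hepatocyte markers. Its promoter is also that of the Cre transgene, and its window held 2 matches of the D-box letters. The part of either in the lower Alb level was not tested. Of 30 acute phase genes 13 had an unadjusted p under 0.05 and DESeq2 called 9. The median was -0.77, and -0.51 without F replicate 2. In edgeR Saa4 was called lower (-1.76 ± 0.38, adjusted p = 0.0147), and its adjusted p was between 0.0859 and 0.096 without F replicate 3 or LKO replicate 1 or 3. Of 35 coagulation and complement genes Cfb and C2 fell (-0.79 ± 0.15 and -0.98 ± 0.25), with an adjusted p between 0.0539 and 0.0606 without F replicate 3 or LKO replicate 2 for Cfb and between 0.0619 and 0.214 whichever library was left out for C2. Genes that differ by sex gave 3 calls. Among 26 male-biased genes 1 rose, Elovl3, and among 26 female-biased genes Ntrk2, a neurotrophin receptor, rose (3.81 ± 0.94, adjusted p = 0.0452, then between 0.134 and 0.211 without F replicate 1 or 3 or LKO replicate 1 or 2, and 0.134 with the spread of the 6 libraries alone) and Acot4 fell. The median of the female-biased list was -0.84, with 11 genes at an unadjusted p under 0.05 and 7 called by DESeq2. Col27a1 and Col15a1 were the calls among 36 matrix and protease genes.

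On 10 further lists with 238 tested genes edgeR called 0: the 15 clock genes above, growth hormone and IGF1 signalling, inflammation, interferon-stimulated, immediate early, glucocorticoid-responsive and secreted hepatokine genes, and mitochondrially encoded, cytosolic ribosomal and nuclear respiratory chain genes. At an unadjusted p under 0.05 there were 28 among them, against 2192 of all 20514 genes tested. They were unevenly spread. Inflammation held 9 of 21, glucocorticoid-responsive genes 6 of 25, growth hormone signalling 4 of 18, hepatokines 4 of 33 and immediate early genes 3 of 25. The mitochondrial and ribosomal lists held 1 each, and the clock, interferon and respiratory chain lists 0. DESeq2 called 11 of the 238, against 756 of all genes, and edgeR called 1.73% of all genes. Of the 11, 5 were glucocorticoid-responsive and 3 inflammation genes, and these were all lower. The glucocorticoid-responsive Fkbp5 came nearest, at 128, 97.2 and 125 CPM in F and 44.9, 64.6 and 60.3 CPM in LKO, -1.05 ± 0.27 (adjusted p = 0.0504), followed by Atf3, an immediate early gene (-1.67 ± 0.43, adjusted p = 0.0534). The 15 mitochondrially encoded genes were all below 0, with a median of -0.49 and 1 at an unadjusted p under 0.05, and their summed level was 41861, 42954 and 35328 CPM in F and 28108, 33123 and 24003 CPM in LKO. Of 30 ribosomal protein genes 28 had estimates above 0, with a median of 0.16.

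**Figure D4:**
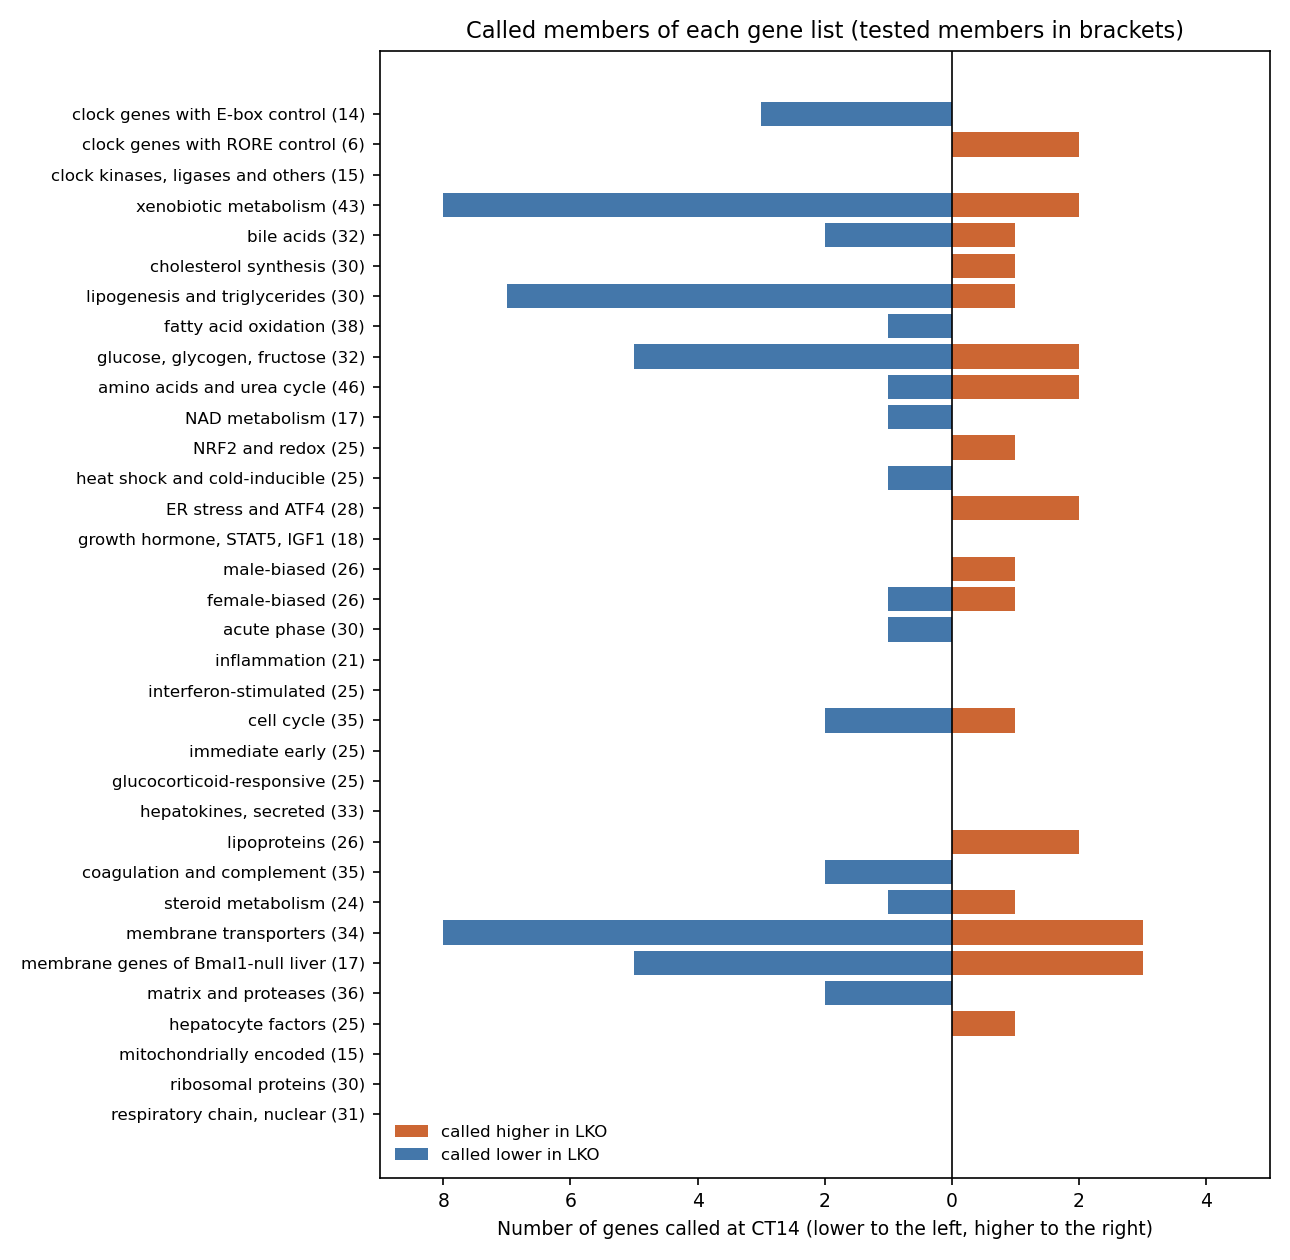
Number of genes called at CT14 on each of 34 lists, with the number tested in brackets, decreases as bars to the left of 0 and increases to the right. Decreases reach 8 genes in the xenobiotic and transporter lists and 7 in lipogenesis, and the 10 lists with no bar had 0 calls.

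Markers of other cells were read for the whole lists. The 12 Kupffer cell and macrophage markers summed to 667, 1359.8 and 1296 CPM in F and 873, 587 and 629.9 CPM in LKO, and all 12 estimates were below 0 (median -0.63). Neutrophil markers summed to 1.84, 46.6 and 13 CPM in F and 3.56, 1.05 and 1.70 CPM in LKO (6 of 6 below 0), erythroid markers to 769, 1354 and 1516 against 752, 523 and 513 CPM, and lymphocyte markers to 10.7, 25.8 and 24.6 against 13.2, 9.41 and 10.2 CPM. In all of these F replicate 1 lay with or near the LKO libraries, and F replicates 2 and 3 were higher. Of the neutrophil markers Ly6g, Elane and Mpo were at 0 in F replicate 1 and Ly6g was at 0 in every LKO library. Endothelial, stellate, adipocyte and spermatid markers had medians of -0.23 (-0.32 to -0.02), -0.09 (-0.25 to 0.01), -0.54 (-0.89 to -0.27) and -0.05 (-0.39 to 0.63), the ranges being those of the fits with a library left out. Cholangiocyte markers summed to 48.0, 86.0 and 52.7 CPM in F and 98.2, 105 and 91.4 CPM in LKO, without overlap. Their median estimate had no steady sign: it was -0.17 (-0.35 to 0.64), positive without F replicate 2 or LKO replicate 3, 0.59 with a replicate block and 0.45 on TPM, and the fits on the 6 libraries alone and on TPM each called 2 members higher. Pancreatic acinar transcripts summed to 862 CPM in F replicate 3 and to between 25.1 and 76.3 CPM in the others, where Pnlip and Cela3b were at 0 in all but F replicate 2. The acinar median was -9.26, and -3.20 without F replicate 3. On these 10 lists of 82 genes edgeR called 0, with 23 at an unadjusted p under 0.05, 10 of them acinar, and 3 called by DESeq2. The part of these cells in the lower inflammatory (median -0.81, 0 of 21 above 0) and acute phase values was not tested.

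The same knockout at CT2 gave 82 calls (0.4% of the genes tested), 56 higher (0.273%) and 26 lower (0.127%). Of these, 39 were called in the same direction as at CT14. That was 11% of the CT14 calls and 47.6% of the CT2 calls, and 2 genes, Per3 and Wee1, were called in opposite directions. The effects at the 2 times share no library, and the difference between them was tested directly: it was called for 23 genes (0.112%), 11 with a more positive effect at CT14 (0.0536%) and 12 with a more negative one (0.0585%). Of the 23, 18 were also called at CT14, and 1276 genes had an unadjusted p under 0.05. Npas2, Per3, Wee1, Tef and Dbp of the clock lists were among the 23. Npas2 differed by 6.16 ± 0.45 (adjusted p = 1.88e-07): its LKO level was much alike at both times, 15.3, 18.8 and 29.8 CPM at CT2, while F went from 11.1, 10.7 and 7.27 CPM at CT2 to the near silence given above. Per3, lower at CT14, was higher at CT2, at 1.15, 0.391 and 0.693 CPM in F and 3.40, 3.24 and 2.48 CPM in LKO, and the effects differed by -3.77 ± 0.46 (adjusted p = 0.000406). Wee1, whose CT14 call was lost in 5 of the 6 fits with a library left out, was likewise called in opposite directions, at 1.79, 1.82 and 1.0 CPM in F and 5.83, 6.22 and 7.74 CPM in LKO at CT2, -3.27 ± 0.40 (adjusted p = 0.000406). Tef and Dbp, not called at CT14 and called higher at CT2 (2.11 and 2.72), gave -2.73 ± 0.25 (adjusted p = 6.08e-06) and -4.20 ± 0.75 (adjusted p = 0.0219).

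Metabolic and growth genes were also among the 23. Acacb was at 109.6, 130.3 and 80.3 CPM in F and 83.9, 119 and 165 CPM in LKO at CT2, and its effects differed by -2.71 ± 0.41 (adjusted p = 0.00423). At CT2 the F and LKO values of Acacb overlapped. Gys2 and Nmrk1 gave -1.58 ± 0.24 (adjusted p = 0.00423) and -2.16 ± 0.41 (adjusted p = 0.0382). Cdkn1a was at 5.93, 8.30 and 6.41 CPM in F and 10.8, 7.91 and 25.4 CPM in LKO at CT2, 3.59 ± 0.52 (adjusted p = 0.00284), and Ppard gave 2.34 ± 0.37 (adjusted p = 0.00545). Papss2, which makes the sulfate donor PAPS, was called lower at CT14 (-0.86 ± 0.18, adjusted p between 0.0564 and 0.0895 without F replicate 2 or 3 or LKO replicate 1 or 2) and gave -1.65 ± 0.25 (adjusted p = 0.00423). Other genes moved at both times. Tox2, Lpl, Nat8, Mme and Col27a1 were called in the same direction at both times, with CT2 values of 4.71, 3.52, -4.19, -4.21 and -2.39 against 4.75, 4.40, -5.09, -3.85 and -3.86 at CT14. The count of 23 was 57 without LKO CT2 replicate 3, 55 without F CT2 replicate 3 and 85 without both of these and KO CT2 replicate 1, and between 12 and 15 without F replicate 3, LKO CT2 replicate 1 or 2 or any 1 LKO library at CT14.

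**Figure D5:**
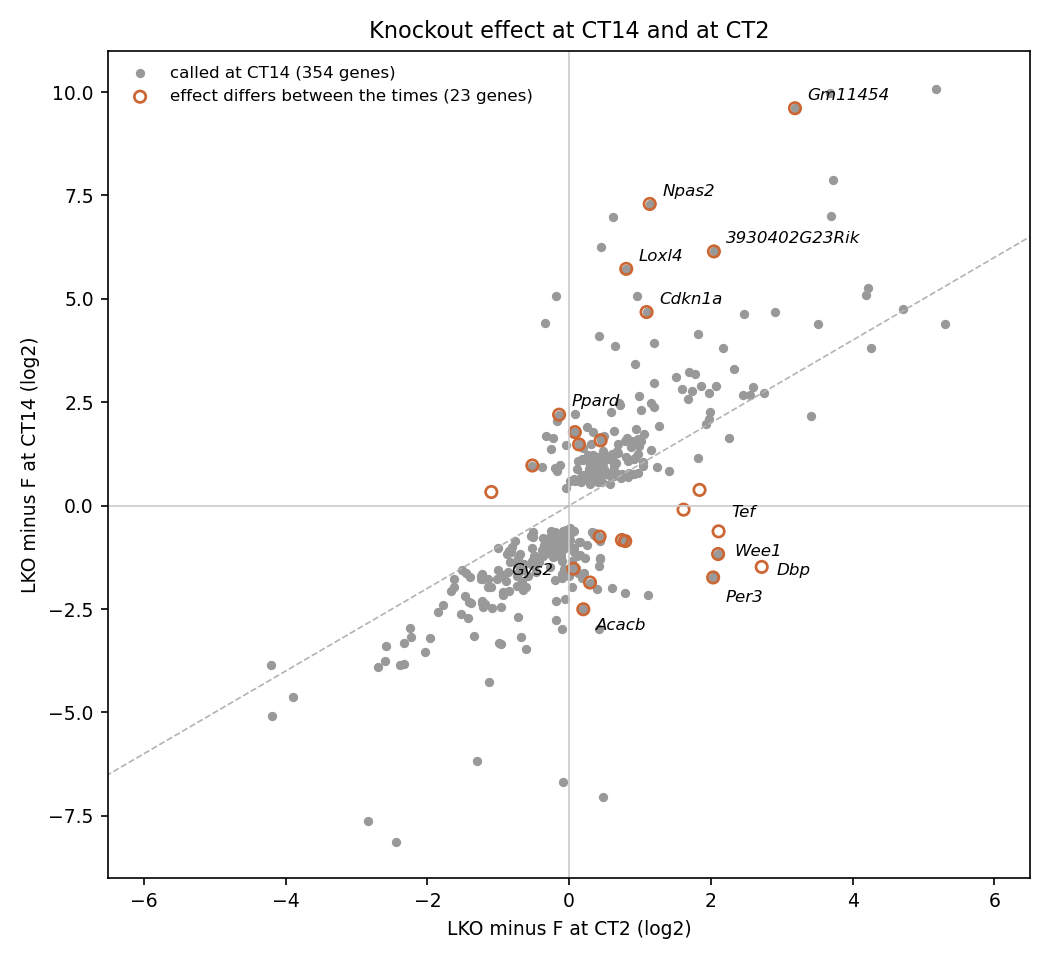
Log2 difference between LKO and F at CT14 (vertical) against CT2 (horizontal) for the 354 genes called at CT14 (grey), with the 23 genes whose effect differed between the times ringed and a dashed line of equal effect. Npas2, Loxl4 and Cdkn1a lie high above the line, and Per3, Wee1, Tef and Dbp lie at the lower right, with estimates above 0 at CT2 and below 0 at CT14.

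Global deletion at the same time gave 1089 calls against WT (5.31%), 647 higher (3.15%) and 442 lower (2.15%), and 233 of the 354 genes were among them in the same direction, 65.8% of the liver-specific and 21.4% of the global calls. No gene was called in opposite directions. Npas2 gave 8.75 in KO, Elovl3 4.04, Lpl 4.17, Nat8 -5.29 and Gys2 -2.49, all called. The test of the difference between the effects called 15 genes (0.0731%), 3 with a more positive (0.0146%) and 12 with a more negative effect in LKO (0.0585%), and 1663 genes had an unadjusted p under 0.05. Of the 15, 4 were called in LKO. Tff3, lower in LKO, was at 1.59, 1.62 and 1.26 CPM in WT and 2.79, 1.51 and 4.75 CPM in KO, and the effects differed by -5.29 ± 0.81 (adjusted p = 0.0217). Cyp3a13, also lower in LKO, was at 101, 92.4 and 109 CPM in WT and 174, 179 and 174 CPM in KO, -2.16 ± 0.36 (adjusted p = 0.0298). Neither gene was called in KO. Tmc5, of the family of transmembrane channel-like genes, was at 8.24, 14.2 and 15.8 CPM in F and 2.62, 1.58 and 1.21 CPM in LKO and at 0.0410, 0 and 0.105 CPM in WT and 7.61, 12.1 and 17.1 CPM in KO, -10.77 ± 1.57 (adjusted p = 0.0217). Usp2, a deubiquitinase gene with a strong rhythm, fell in KO (-3.30), did not pass in LKO (-0.74, adjusted p = 0.416), and gave 2.56 ± 0.48 (adjusted p = 0.0469). Leaving out WT replicate 1 or 2, F replicate 2 or 3, or LKO replicate 2 or 3 brought the 15 to 0, and leaving out F replicate 1 brought it to 45.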

How the data were processed

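Polyadenylated RNA of mouse liver was measured in 24 libraries, 8 groups of 3, prepared with a stranded mRNA kit, per the labels' protocols. The submitters' processing notes name fastp 0.23.2, HISAT2 2.2.1, StringTie 1.3.1 and the genome build GRCm39, without saying what each was used for; neither the annotation release nor the strand setting was found in the labels. The authors deposited estimated counts per gene and TPM values per gene, 1 column per library with no replicates pooled, and every column used named its sample (0 did not). The authors' deposited table for LKO against F at CT14, made with DESeq2 per its name, gives log2 fold changes and p-values, with no version or model stated.

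The estimated counts were rounded and tested with edgeR 4.0.16 in R 4.3.3 (quasi-likelihood test with robust fit, TMM scaling, a mean for each of the 8 groups). The default filter on low counts (minimum count 10, total 15) left 20514 genes. SE is the log2 fold change divided by the root of the F statistic. Depths were 88995259 to 131544733 counts per library, so that 3 counts, used as the floor, are 0.0227 to 0.0287 CPM in the 6 libraries. Intervals and floors cover counting error only and treat each estimated count as 1 read. Among low estimated counts, values at multiples of 4 were 1.18 to 1.41 times as frequent as other values. Estimated counts may therefore not be single reads, and the intervals and floors may be too confident. Alternatives used DESeq2 1.42.0, limma 3.58.1 on log2(TPM + 0.1), other scalings and filters, and each library left out. The edgeR, DESeq2 and limma tests of LKO against F at CT14 were run on simulated data. The other alternatives and the differences of effects were not. The members, gene lists and comparisons were chosen with earlier results of these data known. Genes named are the 12 largest called increases and decreases with separated libraries and at least 1 CPM, all clock genes, up to 4 called genes of every other list (or the 2 nearest), and 8 per difference of effects; others are said to be chosen after their values were seen. A few genes that this rule names are not reported here. Reads shared by near-identical genes cannot be traced. Promoter windows are from RefSeq on GRCm38.p6, matched by symbol; no coordinates of the GRCm39 data were used.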

Additional observations from a re-analysis of the deposited data

Results flagged for a closer look

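The effect of LKO at CT14 differed from that at CT2 by an interaction test in edgeR for the following genes, each as the CT14 minus the CT2 effect on the log2 scale. Among clock genes, Npas2 gave 6.16 ± 0.45 (adjusted p = 1.88e-07), Per3 -3.77 ± 0.46 (adjusted p = 0.000406) and Wee1 -3.27 ± 0.40 (adjusted p = 0.000406). The PAR-bZIP genes Tef and Dbp gave -2.73 ± 0.25 (adjusted p = 6.08e-06) and -4.20 ± 0.75 (adjusted p = 0.0219). These clock genes other than Npas2 had the more negative effect at CT14. Cdkn1a, Ppard and Loxl4 had the more positive effect at CT14, 3.59 ± 0.52 (adjusted p = 0.00284), 2.34 ± 0.37 (adjusted p = 0.00545) and 4.92 ± 0.83 (adjusted p = 0.0192). The noncoding transcripts Gm11454 and 3930402G23Rik did so too, with 6.42 and 4.10. That of Gm11454, which had 1 count over the F libraries at CT14, was 1.19 (adjusted p = 0.385) on TPM, where the pseudocount lowers the fold of low genes. With the spread taken from the libraries of the contrast alone, the adjusted p was 0.0844 for 3930402G23Rik, 0.0576 for Cdkn1a and 0.065 for Papss2. Enzyme genes had the more negative effect at CT14: Acacb -2.71 ± 0.41 (adjusted p = 0.00423), Gys2 -1.58 ± 0.24 (adjusted p = 0.00423), Nmrk1 -2.16 ± 0.41 (adjusted p = 0.0382) and Papss2 -1.65 ± 0.25 (adjusted p = 0.00423).

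The effect of LKO differed from that of global deletion at CT14 for another set, each as the LKO minus the KO effect. Tff3, Cyp3a13, Cyp39a1 and Gadd45a were called lower in LKO and not called in KO, and gave -5.29 ± 0.81 (adjusted p = 0.0217), -2.16 ± 0.36 (adjusted p = 0.0298), -2.2 ± 0.41 (adjusted p = 0.0469) and -2.70 ± 0.51 (adjusted p = 0.0486). Genes called higher in KO and not called in LKO were Tmc5, with -10.77 ± 1.57 (adjusted p = 0.0217), Slc3a1, a subunit of the cystine transporter, with -2.59 ± 0.43 (adjusted p = 0.0298), Acnat2, a peroxisomal acyltransferase, with -3.87 ± 0.65 (adjusted p = 0.0298), and Mboat1, a phospholipid acyltransferase, with -3.91 ± 0.67 (adjusted p = 0.0298). Usp2, Ltbp4, a matrix protein that binds latent TGF-beta, and Timp3, a metalloproteinase inhibitor, were called lower in KO and not called in LKO, and gave 2.56 ± 0.48 (adjusted p = 0.0469), 2.09 ± 0.36 (adjusted p = 0.0298) and 1.96 ± 0.34 (adjusted p = 0.0315). Tmc5 was near 0 in all WT libraries and between 8.24 and 15.8 CPM in F. The F and WT groups are separate lines, and the part of that difference was not tested. None of these calls was kept without WT replicate 1 or without WT replicate 2.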

How the results depend on the processing

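The 354 calls became 896 with the spread taken from the 6 libraries alone (395 higher, 501 lower), 756 in DESeq2 (353 higher, 403 lower), 754 without the 3 CT2 libraries that stood apart, an alternative chosen after seeing the data (346 higher, 408 lower), and 807 on TPM (665 higher). Leaving out 1 library at a time gave 171 to 276 calls, 97 to 132 higher and 69 to 155 lower. RLE or upper-quartile scaling (344 and 340), counts divided by 4 (430), a mean CPM of at least 1 (396) and TPM centred on each library's median (388) stayed within 1.5 times, as did no filter (279). The difference between CT14 and CT2 went from 23 calls to 11 with the libraries of the contrast alone, 130 in DESeq2, 85 without those 3 libraries, and 12 to 57 with 1 library left out. The difference between the liver-specific and global effects went from 15 to 44, 208 in DESeq2, 5 on TPM, and 0 to 45 with 1 library left out. Of 159 values of named genes, none changed sign in a setting where it was called there or in the main fit. Sign changes of values called in neither were not counted, and not every value was tested in each of the 29 settings. DESeq2 kept 145 on their side of the threshold and TPM 136. The cause of these shifts was not tested.

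On TPM the medians of the xenobiotic, glucose and transporter lists were 0.04, 0.02 and 0.05 instead of -0.24, -0.21 and -0.21, and that of the NRF2 list 0.03 instead of -0.23, but all 4 were below the all-gene median there of 0.21. With 1 library left out the first 3 ranged from -0.28 to -0.07, -0.29 to -0.22 and -0.27 to -0.13. Replicate numbers did not pair the libraries: deviations of F and LKO libraries with the same number correlated at -0.298, -0.114 and -0.031, and LKO replicate 1 correlated best with F replicate 2 (0.273). With a replicate block the calls were 292 (153 higher, 139 lower), 38 for the difference between times and 0 for that between the liver-specific and global effects. Cdx4 and Hrk had 0 counts in F and 436 and 415 counts in LKO. The size of such an estimate depends on the scale of the counts: with counts divided by 4, Cdx4 went from 10.09 to 8.10 and Hrk from 9.98 to 7.98.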

Other observations

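Several genes outside the lists, chosen after their values were seen, were called in all 6 fits with a library left out. Tox2, an HMG-box transcription factor gene, was at 0.175, 0.420 and 0.184 CPM in F and 6.51, 8.29 and 6.22 CPM in LKO, 4.75 ± 0.35 (adjusted p = 7.42e-08). Slc34a2, a sodium-phosphate cotransporter, was at 0.981, 4.55 and 2.68 CPM in F and 51.0, 41.2 and 54.3 CPM in LKO, 4.16 ± 0.64 (adjusted p = 0.00105). Mtnr1a, the melatonin receptor MT1, was at 0.0701, 0.344 and 0.523 CPM in F and 4.27, 4.79 and 5.18 CPM in LKO, 3.92 ± 0.56 (adjusted p = 0.000361). All 3 were low in every F library, and all 3 were also called higher in KO (5.06, 5.25 and 3.18).

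Esr1, estrogen receptor alpha, was at 15.9, 35.7 and 36.1 CPM in F and 6.76, 5.47 and 3.88 CPM in LKO, -2.45 ± 0.36 (adjusted p = 0.000586), with F replicate 1 the lowest F library. Ak4, whose promoter holds the D-box letters, was at 150.3, 108 and 140.4 CPM in F and 35.8, 33.8 and 26.5 CPM in LKO, -2.05 ± 0.20 (adjusted p = 5e-06), and Gda at 38.5, 51.8 and 56.0 CPM in F and 10.5, 9.21 and 9.11 CPM in LKO, -2.35 ± 0.31 (adjusted p = 0.000156). In each of these 3 genes the F and LKO libraries did not overlap.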
